A study of Mus musculus with 9 samples.

Results

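The immunity-related GTPases Irgm1, Irgm2, Igtp, Iigp1, Tgtp1 and Tgtp2, the very large GTPase Gvin1 and the Mx GTPases Mx1 and Mx2 were followed in mature megakaryocytes (mMKs) after ionizing radiation (IR). Members were chosen by name and matched to the gene names of the array probes. Of 9 member genes, 8 had probes, 14 in all among 56605 different probes, and Tgtp1 had none under its own name. All 14 passed the filter on dim probes, as did 44300 probes of the whole array. A probe passed where some group had it well above background on each of its 3 arrays.

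The study asked how gene expression in mMKs differs between 1 and 3 days post IR (dpi) and control mice (Ctrl). RNA of each sample was hybridized to its own Agilent 1-colour array, 9 in all, with 3 per group. The labels describe 3 independent experiments at each time with different donors, and no label gives a pairing between groups. The study's methods text describes an Affymetrix array, whereas the deposited scanner files are from Agilent.

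The Ctrl group came from male mice that were not exposed to IR and, by the study's methods, sham-irradiated. The 1 dpi and 3 dpi groups came from male mice given 5 Gy of gamma rays to the whole body and sampled 1 and 3 days later. The labels give no strain, genotype or age for any group, and the methods name C57BL/6 as the wild-type strain without its age. All groups shared the same cell preparation, in which bone marrow cells were enriched through CD41 and then CD42d with magnetic kits, so each sample is a bulk population. In such bulk samples, fewer cells of a type and less RNA per cell cannot be told apart.

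Immunity-related GTPases (IRGs) are interferon-inducible proteins of mice that gather on the vacuoles of intracellular parasites and bacteria and break them open. Their regulatory members sit on the cell's own membranes and keep the effector members inactive there, and Irgm1 is also known for its part in the upkeep of blood stem cells under interferon. Mx proteins are dynamin-like GTPases, induced by type I and III interferons, that block the replication of RNA viruses.

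Promoters are shown first, because the probes of Irgm1, Irgm2, Igtp and Tgtp2 were all higher at 1 dpi. RefSeq promoter windows (build GRCm38.p6) of 300 bases, from 250 before to 50 after the start, were available for 5 of 9 members, all on chromosome 11, at separate places for Irgm1, Tgtp1 and Tgtp2 and for Irgm2 and Igtp. Each was searched on both strands for the interferon-stimulated response element (ISRE), here GAAA, any 2 bases and GAAA, and the gamma-activated site (GAS), here TTCNNNGAA. The ISRE letters were found in 5 of 5 windows, against 3.44% of all 32851 windows, and the GAS letters in 4 of 5, against 8.30%. Capitals mark the matches to either motif, and those of Irgm1 are a pair of overlapping ISRE matches. The stretches lie at chr11:48871421-48871470 (minus strand, Irgm1), chr11:58214882-58214942 (plus, Irgm2), chr11:58199491-58199551 (plus, Igtp), chr11:48992294-48992354 (minus, Tgtp1) and chr11:49064253-49064313 (minus, Tgtp2).
Irgm1: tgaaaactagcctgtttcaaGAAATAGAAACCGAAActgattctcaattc
Irgm2: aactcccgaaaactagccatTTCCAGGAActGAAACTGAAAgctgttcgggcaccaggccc
Igtp: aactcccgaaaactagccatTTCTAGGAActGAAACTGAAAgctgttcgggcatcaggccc
Tgtp1: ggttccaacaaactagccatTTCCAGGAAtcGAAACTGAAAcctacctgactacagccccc
Tgtp2: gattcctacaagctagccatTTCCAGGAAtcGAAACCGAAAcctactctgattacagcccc

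In Irgm2, Igtp, Tgtp1 and Tgtp2 the GAS letters are followed by 2 bases and then by the ISRE letters. This spacing, looked for after the matches had been seen, occurs in 5 of all 32851 windows (0.0152%), those of the 4 members and of Gm12185, another IRG gene on chromosome 11. Both motifs anywhere in a window occur in 149 windows (0.454%). The windows are not independent sequences: those of Irgm2 and Igtp share an identical run of 61 bases, and those of Tgtp1 and Tgtp2 one of 27. A match is a run of letters and not a measured binding site. Iigp1, Gvin1, Mx1 and Mx2 have no entry in the promoter table.

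Values are scaled log2 intensities: the log2 of the processed signal minus the 75th percentile of its array, so that 0 is the level of that percentile. That percentile, on the unscaled log2 scale, was 10.03, 10.62 and 10.66 on the Ctrl arrays, 9.33, 9.45 and 9.43 at 1 dpi, and 10.37, 10.55 and 10.53 at 3 dpi. The 1 dpi arrays were thus the dimmest at this percentile. Ctrl replicate 1 was hybridized alone on 1 slide and the other 8 arrays on another. Differences were tested probe by probe with limma on all 9 arrays, with p adjusted (Benjamini-Hochberg) over 44300 probes. Another setting, called normexp here, changed the background correction to normexp and the scaling to quantile normalization together. A probe was called when its adjusted p was under 0.05 and its difference at least 2-fold. Comparisons with Ctrl share the same 3 Ctrl arrays.

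At 1 dpi, 10 of 14 member probes were called higher than in Ctrl, against 11.6% of all probes, and 0 were called lower, against 3.02%. By adjusted p alone in limma, 13 of 14 were higher, against 34.8% of all probes, and 0 were lower, against 21%. The median log2 difference of the member probes was 1.28, against 0.22 over all probes. The probe that did not pass was A_55_P1955103 of Mx2, which is dim.

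At 3 dpi, 4 of 14 member probes were called higher than in Ctrl, against 6.58% of all probes, and 0 were called lower, against 1.86%. These were the Iigp1 probe A_51_P387239, both Mx1 probes and the Mx2 probe A_51_P514085. By adjusted p alone, 9 were higher, against 16%, and 1 was lower, that of Tgtp2, against 16.9%. The median log2 difference was 0.32, against 0.07 over all probes.

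From 1 to 3 dpi, 5 of 14 member probes were called lower, against 5.03% of all probes, and 0 were called higher, against 3.75%. By adjusted p alone, 12 were lower, against 27.5%, and 0 were higher, against 18.6%. The median log2 difference was -0.95, against -0.13 over all probes. The other 2 probes were A_51_P387239 of Iigp1 and the dim A_55_P1955103 of Mx2.

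**Figure D1:**
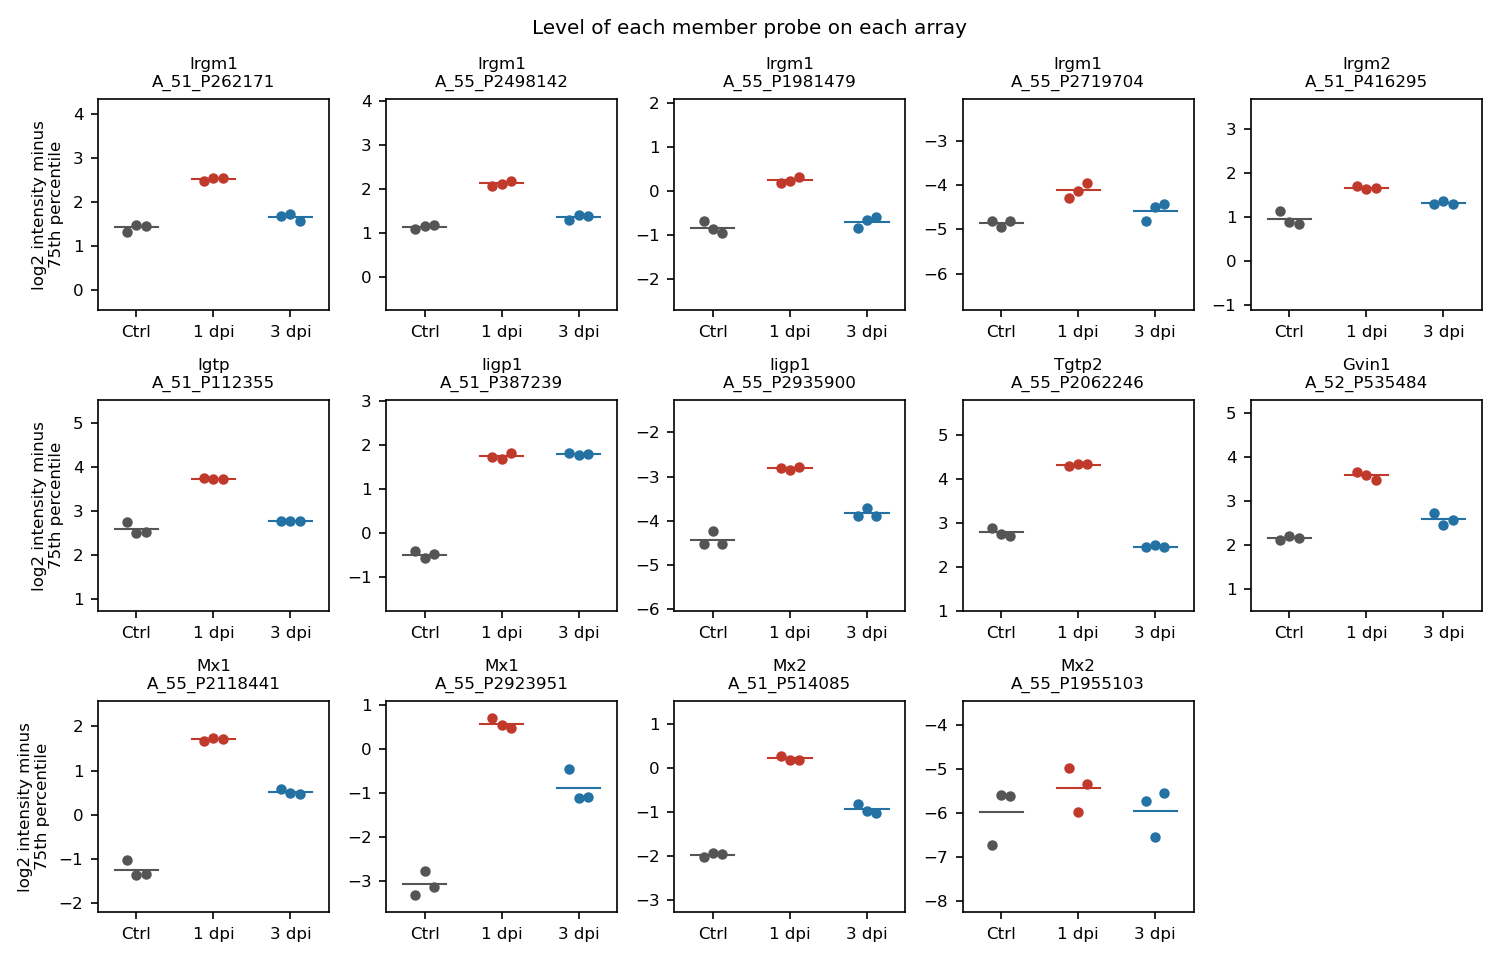
Scaled log2 intensity (vertical axes, log2 of the processed signal minus the 75th percentile of the array) of each of the 14 member probes on the 9 arrays, grouped as Ctrl, 1 dpi and 3 dpi (horizontal axes), 1 point per array and a line at each group mean. The Tgtp2 probe lies between 2.71 and 2.89 in Ctrl, between 4.30 and 4.33 at 1 dpi and between 2.45 and 2.49 at 3 dpi.

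The regulatory IRGs are Irgm1, Irgm2 and Igtp, which hold effector IRGs in their inactive form on the cell's own membranes. Irgm1 had 4 probes (mm9 chromosome 11, minus strand), 3 of them designed on its RefSeq transcript. The first, A_51_P262171 (bases 48679069 to 48679128), read 1.33, 1.49 and 1.46 in Ctrl, 2.48, 2.54 and 2.56 at 1 dpi, and 1.68, 1.73 and 1.58 at 3 dpi. Every 1 dpi array was above every other array, and the 3 dpi arrays lay above Ctrl with no overlap. It rose 2.14-fold at 1 dpi (SE of the log2 difference 0.07, adjusted p 1.8e-05) and differed by log2 0.23 at 3 dpi (SE 0.07, adjusted p 0.038). The 3 dpi difference did not pass with quantile normalization (0.22, adjusted p 0.059), the array median (0.11, adjusted p 0.50) or the slide as a block (0.19, adjusted p 0.063).

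The neighbouring probe A_55_P2498142 read 1.09, 1.15 and 1.17 in Ctrl, 2.07, 2.11 and 2.18 at 1 dpi, and 1.29, 1.41 and 1.38 at 3 dpi. The groups did not overlap, and its 1.98-fold rise at 1 dpi (adjusted p 1.9e-05) was just short of the minimum fold, while its log2 difference was 0.9977 with quantile normalization alone, 1.0004 with normexp background correction before it and 1.0084 without 1 dpi replicate 1, the last 2 past the minimum. The probe A_55_P1981479 read -0.69, -0.86 and -0.95 in Ctrl, 0.18, 0.22 and 0.32 at 1 dpi, and -0.83, -0.67 and -0.59 at 3 dpi. It was high on the 1 dpi arrays, while Ctrl and 3 dpi overlapped, with log2 differences of 1.07 (adjusted p 8.4e-05) and 0.14 (adjusted p 0.32). The latter was 0.01 with the array median, and leaving out each array in turn gave 0.08 to 0.21. The fourth, A_55_P2719704, was designed on another transcript and is dim, at -4.94 to -4.81 in Ctrl, -4.29 to -3.94 at 1 dpi and -4.81 to -4.42 at 3 dpi. Its difference was 0.74 at 1 dpi (SE 0.13, limma adjusted p 0.0020), or 0.31 with quantile normalization (adjusted p 0.21), and 0.28 at 3 dpi (adjusted p 0.13).

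Irgm2, on the plus strand of chromosome 11 (bases 58036064 to 58036123), read 1.14, 0.89 and 0.85 in Ctrl, 1.70, 1.63 and 1.65 at 1 dpi, and 1.30, 1.35 and 1.29 at 3 dpi. Ctrl was lowest, 1 dpi highest and 3 dpi in between, with no overlap. The differences, 0.70 at 1 dpi (SE 0.08, limma adjusted p 0.00034) and 0.35 at 3 dpi (SE 0.08, adjusted p 0.014), passed and were under 2-fold. With the array median the latter was 0.23 and did not pass (adjusted p 0.34). Leaving out each array in turn gave 0.30 to 0.44 for it, with limma adjusted p up to 0.053.

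Igtp, which encodes Irgm3, is a close neighbour, with 15077 bases between its probe and that of Irgm2. It read 2.73, 2.49 and 2.51 in Ctrl, 3.74, 3.71 and 3.72 at 1 dpi, and 2.76, 2.76 and 2.76 at 3 dpi. The 1 dpi arrays stood well apart above all others, and the 3 dpi arrays lay just above the highest Ctrl array. The rise at 1 dpi was 1.15 (SE 0.08, adjusted p 2.1e-05), and the 3 dpi difference was 0.19 (SE 0.08, adjusted p 0.10), which did not pass.

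The size of these rises depends on how arrays are scaled. The unscaled processed signal of Igtp was 6971, 8835 and 9180 in Ctrl and 8594, 9172 and 9045 at 1 dpi. The unscaled Igtp groups therefore overlapped, and the difference arose against the lower 75th percentile of the 1 dpi arrays. For Irgm2 the unscaled signal was 2308, 2926 and 2910 in Ctrl and 2093, 2171 and 2161 at 1 dpi. Unscaled, each 1 dpi array of Irgm2 was thus below every Ctrl array, the reverse of the scaled order. Unscaled Ctrl and 1 dpi signals overlapped for every Irgm1 probe as well. Scaled to the array median instead, the 1 dpi difference was 0.39 for Irgm2 (adjusted p 0.074) and 0.42 for the dim Irgm1 probe (adjusted p 0.066), neither of which passed. For Igtp it was 0.83 and for A_51_P262171 and A_55_P1981479 of Irgm1 0.78 and 0.76, above 0 and passing in limma but under 2-fold. With quantile normalization the values were close to the main ones, at 1.09 for Igtp and 1.12 for A_51_P262171, both called, and 0.74 for Irgm2 (adjusted p 0.00016). With normexp they were 1.08, 1.13 and 0.72.

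The effector IRGs Iigp1 (Irga6), Tgtp1 and Tgtp2 (Irgb6 genes) bind the membranes of pathogen vacuoles. The Iigp1 probe A_51_P387239, designed on RefSeq transcripts (chromosome 18, plus strand, bases 60552153 to 60552212), read -0.41, -0.56 and -0.47 in Ctrl. It read 1.74, 1.69 and 1.82 at 1 dpi, and 1.82, 1.78 and 1.81 at 3 dpi. All 6 arrays after IR stood above all Ctrl arrays, and the 1 and 3 dpi arrays overlapped. The rise was 4.69-fold at 1 dpi (log2 2.23, SE 0.07, adjusted p 6.1e-07) and 4.87-fold at 3 dpi (log2 2.28, SE 0.07, adjusted p 4e-07). From 1 to 3 dpi the difference was 0.05 (95% interval -0.10 to 0.21, adjusted p 0.53).

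The other Iigp1 probe, A_55_P2935900, is dim and was designed on a cDNA clone 13882 bases away. It read -4.54, -4.23 and -4.53 in Ctrl, -2.80, -2.85 and -2.78 at 1 dpi, and -3.91, -3.72 and -3.89 at 3 dpi. It was highest at 1 dpi and intermediate at 3 dpi, with no overlap of groups. The rise was 1.62 at 1 dpi (SE 0.10, limma adjusted p 1.3e-05) and 0.60 at 3 dpi (SE 0.10, adjusted p 0.0027), and between these times the probe fell by 1.03 (adjusted p 0.00019). That fall was under 2-fold, though passing in limma, with quantile normalization (-0.86), the array median (-0.84), normexp (-0.54), relative to all probes (-0.90) and without 3 dpi replicate 1 (-0.99). Its 1 dpi difference was 1.28 with quantile normalization alone and 0.77, under 2-fold, with normexp background correction before it.

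The 3 dpi difference of this dim probe was 0.42 with quantile normalization and 0.23 with normexp, both passing in limma. The Iigp1 probes thus read differently at 3 dpi. The difference between them within an array, whose size has no meaning of its own, averaged 3.95 in Ctrl (SD 0.25), 4.56 at 1 dpi (SD 0.04) and 5.64 at 3 dpi (SD 0.12). It did not overlap between any groups. Each of the 3 comparisons gave p 0.1 in a two-sided exact permutation test, the smallest that 3 against 3 arrays allow. That p cannot pass 0.05 and only restates the lack of overlap. Other probe pairs of a gene also lacked overlap in some comparisons. Between Ctrl and 1 dpi the difference changed by 1.65 for the Mx2 pair and by -0.69 for the Mx1 pair. For A_51_P262171 and A_55_P2719704 of Irgm1 it changed by 0.36. These pairs overlapped between Ctrl and 3 dpi. Whether the clone probe lies in an exon of Iigp1 is not annotated in the files.

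Tgtp2 has 1 probe (chromosome 11, minus strand, bases 48871837 to 48871896), and the file also lists a Tgtp1 transcript for it, so its signal cannot be assigned to either gene alone. It read 2.89, 2.76 and 2.71 in Ctrl, 4.30, 4.33 and 4.33 at 1 dpi, and 2.45, 2.49 and 2.45 at 3 dpi. The 1 dpi arrays were highest and the 3 dpi arrays were below every Ctrl array. It rose 2.89-fold at 1 dpi (log2 1.53, SE 0.07, adjusted p 2.6e-06). It was lower than Ctrl at 3 dpi, with a log2 difference of -0.32 (SE 0.07, adjusted p 0.0071). Between 1 and 3 dpi it fell by 1.85 (SE 0.07, adjusted p 6.2e-06). The 3 dpi difference from Ctrl stayed negative and passed under the other scalings, at -0.37 with quantile normalization, -0.45 with the array median and -0.38 with normexp.

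Gvin1 encodes a very large interferon-inducible GTPase. Its probe (chromosome 7, minus strand, bases 113302432 to 113302491) also lists a transcript of Gm4070. It read 2.12, 2.20 and 2.16 in Ctrl, 3.66, 3.59 and 3.48 at 1 dpi, and 2.73, 2.46 and 2.57 at 3 dpi. The groups did not overlap, with 1 dpi highest and 3 dpi in between. The rise was 1.42 at 1 dpi (SE 0.09, limma adjusted p 1.4e-05) and 0.43 at 3 dpi (SE 0.09, adjusted p 0.0072). The 3 dpi difference was 0.30 and did not pass when scaled to the array median (adjusted p 0.10).

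Mx1 and Mx2 lie side by side on chromosome 16, with 111372 bases between probes, and RefSeq lists both as transcribed pseudogenes in its assembly of C57BL/6J. The Mx1 probe A_55_P2118441 (minus strand, bases 97668644 to 97668703) read -1.02, -1.38 and -1.34 in Ctrl, 1.67, 1.74 and 1.73 at 1 dpi, and 0.58, 0.49 and 0.47 at 3 dpi. The groups stood far apart, with 1 dpi highest and 3 dpi in between. It rose 7.80-fold at 1 dpi (log2 2.96, SE 0.10, adjusted p 1e-06) and 3.40-fold at 3 dpi (log2 1.77, SE 0.10, adjusted p 9.4e-06).

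The other Mx1 probe, A_55_P2923951, read -3.33, -2.76 and -3.15 in Ctrl, 0.70, 0.54 and 0.47 at 1 dpi, and -0.45, -1.12 and -1.08 at 3 dpi. It showed the same order of groups with no overlap and a wider spread at 3 dpi. It rose 12.6-fold at 1 dpi (log2 3.65, SE 0.21, adjusted p 9.7e-06) and 4.58-fold at 3 dpi (log2 2.20, SE 0.21, adjusted p 0.00015). The listed positions of the Mx1 probes overlap, yet their sequences share no run longer than 6 bases.

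The Mx2 probe A_51_P514085 (plus strand, bases 97782327 to 97782386) read -2.03, -1.94 and -1.95 in Ctrl, 0.27, 0.19 and 0.18 at 1 dpi, and -0.83, -0.97 and -1.02 at 3 dpi. Again 1 dpi was highest, 3 dpi in between and Ctrl lowest, without overlap. It rose 4.55-fold at 1 dpi (log2 2.19, SE 0.07, adjusted p 8.4e-07) and 2.05-fold at 3 dpi (log2 1.03, SE 0.07, adjusted p 2.6e-05). The 3 dpi call is at the edge of the minimum fold: the log2 difference was 0.99 with quantile normalization, 0.91 with the array median, 0.87 with normexp and 0.98 without 3 dpi replicate 1.

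The Mx2 probe A_55_P1955103, designed on another transcript, was well above background on 2 of 3 Ctrl arrays, 2 of 3 at 1 dpi and 3 of 3 at 3 dpi. It read -6.72, -5.58 and -5.61 in Ctrl, -4.98, -5.96 and -5.34 at 1 dpi, and -5.73, -6.54 and -5.55 at 3 dpi. All groups overlapped, and no difference passed, with 0.54 at 1 dpi (SE 0.41, limma adjusted p 0.28) and 0.03 at 3 dpi (SE 0.41, adjusted p 0.96). With quantile normalization both of these values were below 0, at -0.03 and -0.30.

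**Figure D2:**
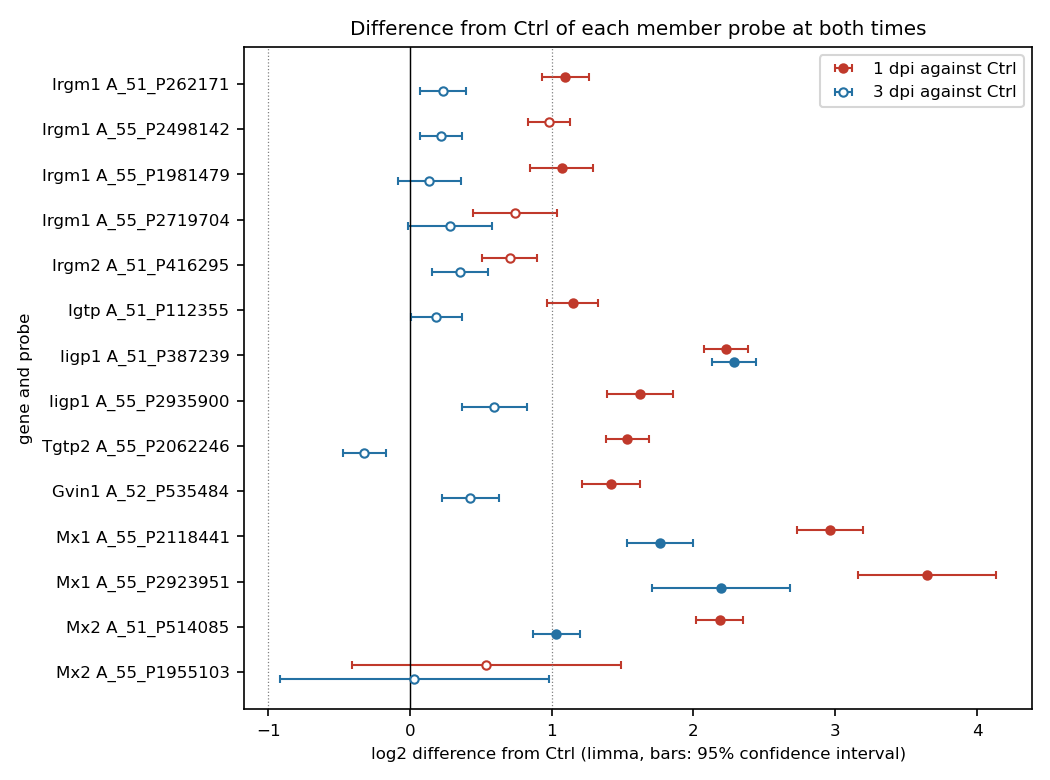
Log2 difference from Ctrl (horizontal axis) of each member probe (vertical axis) at 1 dpi (red) and 3 dpi (blue), with bars for the 95% confidence interval from limma. Filled points were called and open points were not, dotted lines mark 2-fold, and the largest rise at 1 dpi is that of the Mx1 probe A_55_P2923951 at 3.65, while A_55_P1955103 of Mx2 spans 0 and changes sign with quantile normalization.

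From 1 to 3 dpi, the called falls were those of Tgtp2, both Mx1 probes, A_51_P514085 of Mx2 and A_55_P2935900 of Iigp1. The Mx1 probes fell by 1.20 (adjusted p 0.00011) and 1.45 (adjusted p 0.0011), and the Mx2 probe fell by 1.15 (adjusted p 3.2e-05). Gvin1 fell by 0.99, Igtp by 0.96 and the Irgm1 RefSeq probes by 0.86, 0.76 and 0.94, all passing in limma yet under 2-fold. Gvin1 passed 2-fold when 1 dpi replicate 3 (-1.04) or 3 dpi replicate 1 (-1.06) was left out, and with the array median the Mx2 probe A_51_P514085 did not (-0.96). Irgm2 fell by 0.35 (adjusted p 0.012). Scaled to the array median, the Irgm2 difference was -0.16 (adjusted p 0.48) and did not pass.

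**Figure D3:**
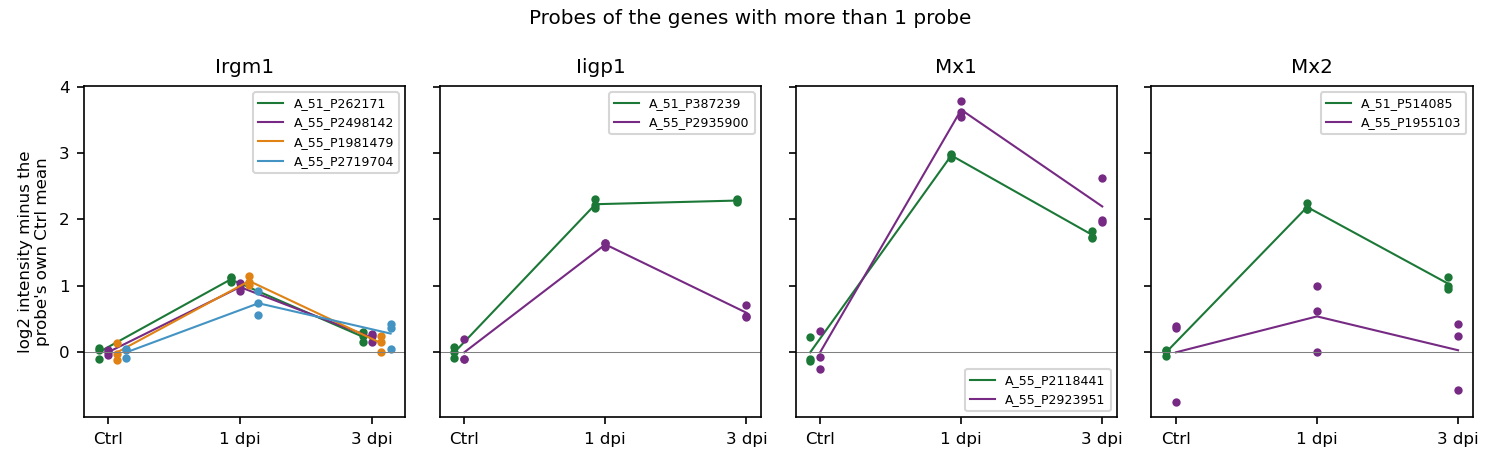
Scaled log2 intensity relative to the mean of the Ctrl arrays (vertical axis) for every probe of Irgm1, Iigp1, Mx1 and Mx2 in the 3 groups (horizontal axis), 1 point per array, with lines joining group means and 1 colour per probe. The Iigp1 probes differ from Ctrl by 2.28 and 0.60 at 3 dpi, and the dim Mx2 probe A_55_P1955103 lies around 0, its sign at 3 dpi turning under quantile, array-median and normexp scaling.

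Scaling moved the whole array as well as the members. Of all calls at 1 dpi, 79.3% were higher, against 51% with quantile normalization, 45.2% with the array median and 66.7% with normexp. At 3 dpi these shares were 78%, 67.8%, 69.1% and 77.8%, and from 1 to 3 dpi 42.7%, 61.5%, 66.3% and 50.1%. Member probes called higher at 1 dpi numbered 10 with quantile normalization, 7 with the array median and 10 with normexp, against 5.99%, 6.22% and 3.29% of all probes. Those higher by adjusted p alone at 3 dpi numbered 7, 5 and 9, against 14.8% of all probes or less in each of them, and under each of these scalings 1 was lower, against 20.2%, 16.2% and 21.2%. Relative to the all-probe median of 0.22, the 1 dpi differences were 3.43 and 2.74 for Mx1, 2.01 for the RefSeq Iigp1 probe, 1.96 for Mx2, 1.31 for Tgtp2 and 1.19 for Gvin1. On that basis Igtp (0.93) and A_51_P262171 and A_55_P1981479 of Irgm1 (0.88 and 0.85) were under 2-fold.

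The slide was tried as a block, which for a Ctrl comparison leaves Ctrl replicate 1 without weight. The member probes called within the 8-array slide then numbered 10 at 1 dpi, 4 at 3 dpi and 5 from 1 to 3 dpi, where 5283, 3451 and 4154 of 44300 probes were called. Tgtp2 at 3 dpi was -0.27 (adjusted p 0.0075) on that basis, and Igtp at 3 dpi was 0.27 and passed (adjusted p 0.0061).

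The deposited log2 matrix holds 27275 gene names and 8 rows of members, with none for Tgtp1. Each row followed the quantile-normalized values of a single probe to within 0.002 after centring, so that the clone probe of Iigp1, A_55_P2118441 of Mx1, A_55_P1955103 of Mx2 and the other Irgm1 probes are not represented. The Iigp1 row follows A_51_P387239, and the lower 3 dpi value of the clone probe cannot be seen in it.

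Profiles over the 9 arrays were compared with the mean of the brightest probe of each of the 8 genes, each centred on its own mean. Pearson's r with this mean, to which each gene contributes, was lowest for Tgtp2 (0.81) and Iigp1 (0.82) and highest for Mx2 (0.997). The probes outside the members with the most similar profile were those of Ifit3b (r 0.9997), Clec4d (0.9994), Mgmt (0.9988), Irg1 (0.9988) and Ifit1 (0.9985). These r values are descriptions over 9 arrays that fall into 3 groups.

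Other IRG and very large GTPase genes had 15 kept probes. At 1 dpi 7 of them were called higher, at 3 dpi 3, with 0 lower in either comparison, and 5 were called lower from 1 to 3 dpi, with medians of 0.98, 0.11 and -0.68. The 3 dpi median was -0.01 with the array median. Gm12185 was well above background on 2 of 3 Ctrl, 3 of 3 1 dpi and 2 of 3 3 dpi arrays, and so passed the filter only through 1 dpi, where it read 1.44 from Ctrl (SE 0.31), a value that adds no support to the promoter spacing. Gm4951, another IRG gene, rose by 1.84 at 1 dpi and 2.43 at 3 dpi. Gm17757 rose by 2.35 and Gm1966 by 1.51 at 1 dpi.

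Interferon signal and feedback genes had 35 kept probes, 14 called higher and 0 lower at 1 dpi, 3 and 0 at 3 dpi, and 0 and 6 from 1 to 3 dpi, with medians of 0.62, 0.14 and -0.48. The 3 of 35 called higher at 3 dpi stand beside 6.58% of all probes, and the median there beside 0.07. With quantile normalization the medians at 1 and 3 dpi were 0.32 and 0.06, and with the array median 0.31 and 0.02. Ifnb1, which encodes interferon beta, was well above background on 0 of 3 Ctrl arrays and 3 of 3 at each later time, so that its fitted differences of 2.94 and 0.76 are set against a background level and do not measure a fold. Irf7, a driver of type I interferon genes, rose by 2.14 and 1.25, and Usp18, a brake on the receptor, by 2.09 and 0.60. Irf1, a transcription factor of the interferon gamma response, rose by 1.48 at 1 dpi and differed by -0.11 at 3 dpi (adjusted p 0.25). Ifng, which encodes interferon gamma, was called higher at both times, at 1.30 and 2.21, and rose from 1 to 3 dpi by 0.91 (adjusted p 0.00022); it lies outside the rule for named genes and was chosen after its values were seen.

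Guanylate-binding proteins, related effectors of the same vacuoles, had 12 kept probes, 6 called higher at 1 dpi, 4 at 3 dpi, and 3 higher and 3 lower from 1 to 3 dpi, with medians of 0.92, 0.86 and -0.57. Gbp2 rose by 2.81 and 0.94, Gbp6 by 2.52 and 2.17, Gbp9 by 2.23 and 0.78, and Gbp4 by 1.67 and 0.999, and of these only Gbp6 was called at 3 dpi. Chosen after their values were seen, Gbp8 read -0.05 at 1 dpi and 1.36 at 3 dpi and Gbp11 0.35 and 1.59, and these genes hold 3 of the 4 calls at 3 dpi and the 3 higher calls from 1 to 3 dpi. Autophagy-related partners of IRG loading had 34 kept probes, 1 called higher at 1 dpi, 1 lower at 3 dpi and 3 lower from 1 to 3 dpi, with medians of 0.00, 0.01 and -0.13. None of these genes was called by its brightest probe at 1 dpi, where Sqstm1 read 0.92 (its probes -0.78 to 1.53) and Map1lc3a -0.58. Other dynamin superfamily GTPases had 19 kept probes, 1 called lower at 1 dpi, 0 called at 3 dpi and 1 higher from 1 to 3 dpi, with medians of 0.01, 0.04 and -0.03. The probe called lower, of the neuronal dynamin Dnm1, read -3.61, and its other probe 0.55. The medians of the autophagy and dynamin lists change sign with scaling, to -0.31 and -0.30 at 1 dpi with the array median.

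**Figure D4:**
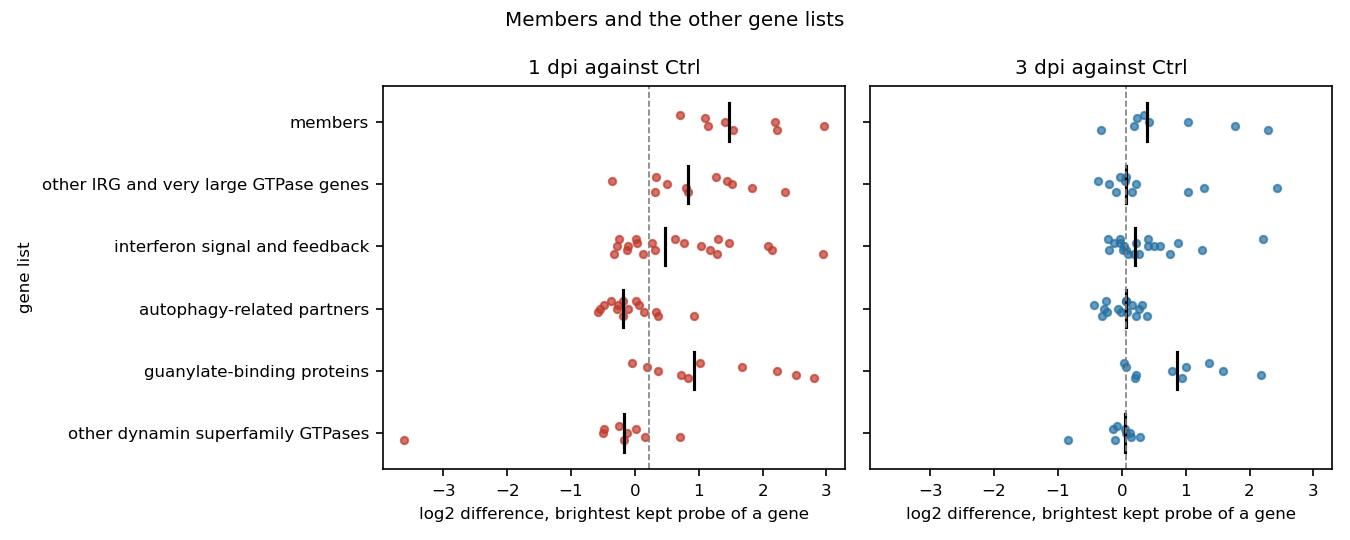
Log2 difference from Ctrl (horizontal axes) of the brightest kept probe of each gene at 1 dpi (left) and 3 dpi (right), for the members and 5 gene lists (vertical axis), 1 point per gene. Black bars are medians over genes, at 1.47 and 0.39 for the members, and the dashed grey line is the median of all probes, at 0.22 and 0.07, which turns to -0.09 and -0.05 with the array median.

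Markers of the labelled cell type and of other marrow cells were read on the same arrays, as sums over genes of the unlogged scaled intensity. All 14 megakaryocyte genes were well above background on at least 1 array. Their sum was 138, 124 and 122 in Ctrl, 136, 125 and 123 at 1 dpi, and 148, 146 and 144 at 3 dpi, with Pf4 alone at 50% of it. The median of the list at 1 dpi was -0.09, but -0.30 with quantile normalization and -0.41 with the array median. Of their 20 probes, 0 were called at 1 dpi in limma, where 4 were higher and 5 lower by adjusted p alone, and 1 was called lower at 3 dpi, where 8 were higher and 2 lower by adjusted p alone.

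Macrophage genes summed to 61.6, 55.1 and 53.0 in Ctrl, 80.9, 76.0 and 80.1 at 1 dpi, and 145, 143 and 140 at 3 dpi, with Csf1r the brightest. The 22 probes gave 8 higher and 3 lower calls at 1 dpi, then 13 and 0 at 3 dpi. Stromal genes summed to 10.1, 9.71 and 10.2, then 50.3, 43.4 and 47.2, then 90.2, 81.9 and 88.3, with Cxcl12 the brightest and 14 and 17 of 22 probes called higher. Endothelial genes summed to 2.55, 2.27 and 2.34, then 4.12, 3.79 and 3.91, then 8.50, 7.12 and 7.40, with Stab2 the brightest and 5 and 10 of 12 probes called higher. These 3 sums were highest at 3 dpi.

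Dendritic genes summed to 23.2, 37.2 and 38.1 in Ctrl, 66.5, 62.8 and 61.3 at 1 dpi, and 37.3, 34.8 and 34.3 at 3 dpi, with Siglech at 69.0% of the sum and Xcr1 not above background on any array. The 16 probes gave 3 higher and 3 lower calls at 1 dpi, then 2 and 1 at 3 dpi. Neutrophil genes summed to 1071, 1166 and 1152, then 1968, 1828 and 1797, then 1213, 1086 and 1146, with Mpo the brightest and 2 of 11 probes called higher at 1 dpi and 0 at 3 dpi. Both sums were highest at 1 dpi. The dendritic genes were mixed at 1 dpi, with Flt3 at -1.65, Bst2 at 1.34 and the Siglech probes from -1.61 to 1.08, and their median was 0.06 over probes, 0.54 over genes and -0.49 over probes with quantile normalization. By adjusted p alone, 8 of 11 neutrophil probes were higher and 0 lower at 1 dpi, and from 1 to 3 dpi 9 were lower and 0 higher. The neutrophil median at 1 dpi was 0.54, or -0.02 with quantile normalization and 0.23 with the array median. T and NK cell genes summed to 4.19, 4.67 and 4.69, then 9.24, 8.61 and 9.16, then 10.6, 10.6 and 9.97, with Gzmb the brightest and 7 of 15 probes called higher at each time.

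B cell genes summed to 29.6, 27.9 and 28.7 in Ctrl, 5.90, 5.65 and 5.82 at 1 dpi, and 5.74, 5.57 and 5.57 at 3 dpi, with Cd79b the brightest. Of 14 probes, 12 were called lower at each time and 1 higher at 1 dpi. Erythroid genes summed to 105, 85.4 and 88.6, then 245, 200.2 and 197, then 33.5, 33.3 and 30.7, with Hba-a1 at 92.1% of the sum. The mean log2 level of the erythroid genes was instead lower at 1 dpi, at -1.14, -1.29 and -1.36 against 0.74, 0.61 and 0.62 in Ctrl, with Ahsp at -7.62 and Slc4a1 at -3.78 from Ctrl. The 11 probes gave 3 higher and 6 lower calls at 1 dpi, then 9 lower at 3 dpi. The part of any of these cell types in the member values was not tested.

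**Figure D5:**
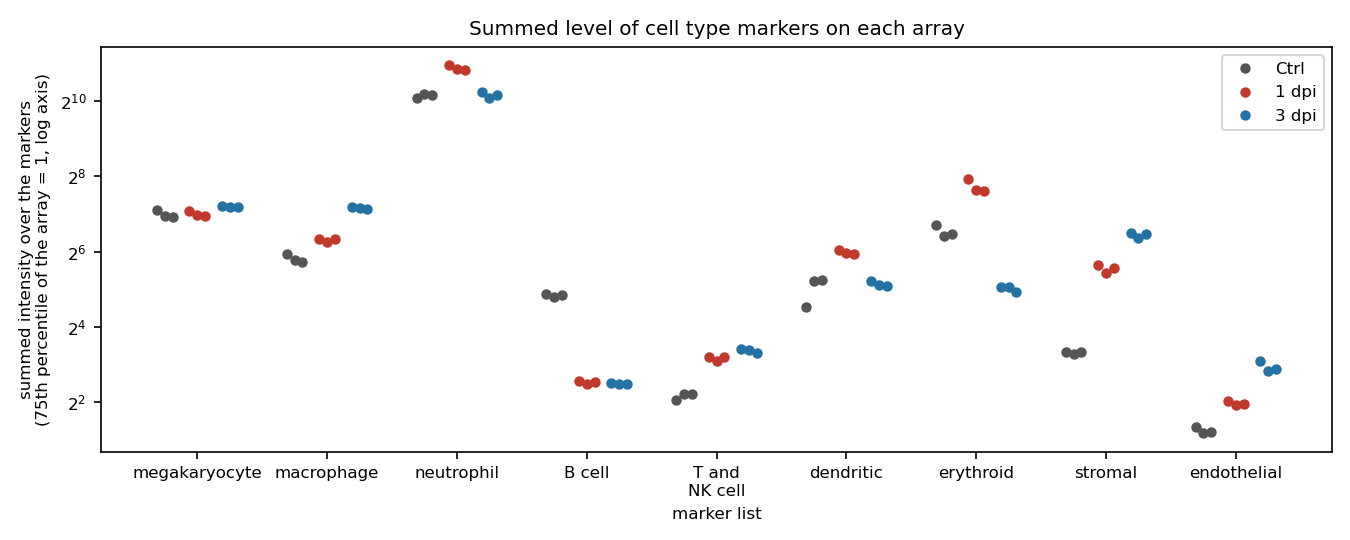
Summed unlogged scaled intensity (vertical axis, log scale) of the marker genes of 9 marrow cell types on each of the 9 arrays. The megakaryocyte sum, 50% of it Pf4, lies between 122 and 148 on all arrays with this scaling, while the macrophage sum reaches 145 at 3 dpi and the B cell sum is at most 5.90 after IR.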

How the data were processed

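RNA of mMKs from 9 samples (Ctrl, 1 dpi and 3 dpi, 3 each) was measured on Agilent 1-colour arrays. Per the file headers, the scanner files hold intensity values from Agilent Feature Extraction 10.7.1.1. The deposited matrix holds log2 values with 1 row per gene name, and only its differences between arrays were used. Its rows were matched to single probes for the members alone. Here the log2 of the processed signal was averaged over spots of a probe and the array's 75th percentile subtracted. Of 59305 probe spots (56605 probes), 20 probes with outlier spots were left out, and 44300 that stood well above background on each of the 3 arrays in some group were kept. The number of arrays limits the precision.

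Group means were fitted with limma 3.58.1 in R 4.3.3 (with the package data.table, version 1.17.8), p adjusted by Benjamini-Hochberg. Figures were drawn with Python 3.11.15 and matplotlib 3.10.9. The code was tested on simulated data. Named genes are all member probes, up to 4 genes a list with the largest called difference at 1 dpi by their brightest probe (2 where none was called), and the 5 genes most like the members' mean. Marker lists are given by counts and sums. Members and lists were chosen with earlier results of these data known. Alternatives changed the scaling (quantile or array median), the background correction and the scaling together (normexp with an offset of 50, then quantile, called normexp), the source of values, the filter, the probe per gene, blocks by replicate number or slide, the arrays in the fit, the test, the minimum fold and the centring. No protein sequences were available, so the planned protein comparison was left out.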

Additional observations from a re-analysis of the deposited data

Results flagged for a closer look

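For 5 member probes the difference from Ctrl was not the same at 3 dpi as at 1 dpi, tested by the limma contrast between these times and called at 2-fold. The effect at 3 dpi minus the effect at 1 dpi was -1.85 for Tgtp2, -1.45 and -1.20 for the Mx1 probes A_55_P2923951 and A_55_P2118441, -1.15 for the Mx2 probe A_51_P514085 and -1.03 for the Iigp1 probe A_55_P2935900. Each was lower on 3 of 3 arrays at 3 dpi than on any 1 dpi array. These are the arrays that gave the call, so the lack of overlap adds no support. Member probes that passed by adjusted p in limma without being called did not overlap between these times either. Groups of 3 arrays were not searched for outlying arrays.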

How the results depend on the processing

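Signal over background may limit the dim probes, such as A_55_P1955103 of Mx2, whose small difference never passed and changed sign. At 1 dpi it was -0.034 with quantile normalization, and leaving out each array in turn gave 0.1641 to 0.8081. At 3 dpi it was -0.3005 with quantile normalization, -0.0931 with the array median, -0.0371 with normexp and quantile normalization together (normexp), -0.3452 with the slide as a block and -0.0393 relative to the all-probe median; leaving out each array in turn gave -0.3452 (no Ctrl replicate 1) to 0.3312 (no 3 dpi replicate 2). The cause was not tested.

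All probes called at 1 dpi (6467) numbered 2182 with normexp, 3808 in the deposited matrix, 23885 by the methods' unadjusted test and 24733 with no minimum fold. At 3 dpi (3739) they numbered 1455 with normexp, 2359 among probes well above background on all 9 arrays, 16232 by the unadjusted test and 14563 with no minimum fold. From 1 to 3 dpi (3891) they numbered 1410 with normexp, 6931 with no filter, 2573 with the brightest probe per gene, 25077 by the unadjusted test and 20438 with no minimum fold. Member probes called at 1 dpi (10) ranged from 7 to 13. At 3 dpi (4) they numbered 2 in the matrix, 10 by the unadjusted test and 10 with no minimum fold. From 1 to 3 dpi (5) they numbered 3 with the array median, in the matrix and with the brightest probe, and 12 by the unadjusted test and with no minimum fold. The brightest-probe setting tests fewer probes. The matrix tests fewer probes and its member rows follow quantile-normalized values, so its counts cannot be put down to either alone. In it A_51_P514085 of Mx2 at 3 dpi was 0.992, under 2-fold, close to 0.992 with quantile normalization. The unadjusted test and the setting with no minimum fold apply a looser rule. Elsewhere the cause was not tested.

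Leaving out each array in turn gave 5283 to 7563, 3421 to 3962 and 3456 to 4154 calls over all probes, and 10 to 11, 3 to 4 and 5 to 6 member probes. With the replicate number as a replicate block the calls were 6220, 3627 and 3773, and 10, 4 and 5 of the members. Between groups, arrays with the same number had correlations of their deviations from -0.09 to 0.13, and arrays with different numbers from -0.14 to 0.09. With 3 arrays per group, values this small can neither show nor exclude that the numbers pair the samples.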
